A study of Mus musculus with 8 samples.

Results

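*Fos*, *Jun*, *Elk1* and *Cebpb* encode transcription factors that act downstream of mitogen-activated protein kinases and cytokine receptors. They were taken by name as 4 of the 84 pathway genes read on a quantitative PCR plate of Toll-like receptor (TLR) signalling, which also holds 5 housekeeping genes. RNA came from whole spleen of 3 kinds of mice: those labelled TLR7-/-, those labelled IFNAR-/-, and C57BL/6 wild-type mice. TLR7-/- mice are deficient for the endosomal receptor that senses R848, and IFNAR-/- mice for the type I interferon receptor. Each kind received R848 (resiquimod, a small-molecule agonist of TLR7) at 1 mg per kg per day, or PBS (Mock), over 7 days. The 8 samples form 6 groups, and each sample is a pool of RNA from 3 mice. A deficient strain has 1 sample per treatment, and wild type has 2, from separate experiments, deposited as their mean. No group therefore has a spread between samples, no test could be made, and "higher" or "lower" refers to these pools alone.

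AP-1 is a dimer in which Jun pairs through a leucine zipper with itself or with a partner such as Fos. *Fos* and *Jun* are immediate-early genes, switched on within a short time of a stimulus, and the Jun protein is activated through phosphorylation by JNK kinases. Elk1 is an ETS-domain factor that MAP kinases phosphorylate and that acts with serum response factor, classically at the *Fos* gene. *Cebpb* encodes C/EBP-beta, also known as NF-IL6, a leucine-zipper factor of macrophages and other myeloid cells that regulates cytokine genes. Only transcripts were measured here, so phosphorylation and dimer formation were not seen.

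The region before the start of a gene can hold sites through which such factors act, including on their own genes, so the windows of the AP-1 pair and of *Cebpb* are shown. They run from 250 bases before to 50 bases after the annotated start (RefSeq, GRCm38.p6), and capitals mark matches to the motifs searched.
Fos (chr12:85473640-85473939, plus strand): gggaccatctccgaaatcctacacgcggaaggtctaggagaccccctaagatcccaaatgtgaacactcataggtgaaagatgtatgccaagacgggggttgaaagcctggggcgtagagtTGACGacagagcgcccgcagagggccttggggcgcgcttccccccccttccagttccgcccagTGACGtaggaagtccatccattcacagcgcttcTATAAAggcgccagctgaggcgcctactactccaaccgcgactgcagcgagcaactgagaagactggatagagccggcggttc
Jun (chr4:95052173-95052472, minus strand): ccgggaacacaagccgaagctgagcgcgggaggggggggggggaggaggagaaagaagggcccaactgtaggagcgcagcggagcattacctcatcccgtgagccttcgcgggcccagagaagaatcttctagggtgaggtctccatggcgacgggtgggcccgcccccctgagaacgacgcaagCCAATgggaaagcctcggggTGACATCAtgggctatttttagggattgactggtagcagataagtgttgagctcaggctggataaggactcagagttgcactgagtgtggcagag
Cebpb (chr2:167688665-167688964, plus strand): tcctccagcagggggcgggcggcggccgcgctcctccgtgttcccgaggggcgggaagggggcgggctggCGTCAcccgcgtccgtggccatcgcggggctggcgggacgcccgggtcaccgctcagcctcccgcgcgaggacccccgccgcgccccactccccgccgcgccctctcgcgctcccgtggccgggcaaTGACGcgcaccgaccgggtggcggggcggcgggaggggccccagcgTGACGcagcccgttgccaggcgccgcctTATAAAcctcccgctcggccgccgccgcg

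The motifs were searched on both strands, and positions are those of the first base of a match as printed. The *Jun* window held TGACATCA, the AP-1-like site known from this promoter, 45 bases before the start, and 3.62% of all 32851 windows held it. The half-site of the cyclic-AMP response element, TGACG, was present in 20.8% of windows. It matched the *Fos* window at 129 and 66 bases before the start, and the *Cebpb* window at 180, 53 and 7 bases before it, the first of them on the opposite strand. The TATA-box motif, TATAAA, matched the *Fos* window 33 bases before the start. In the *Cebpb* window it matched from base 22 after the annotated start, and is given there as a match of letters only. It was found in 13.6% of windows. CCAAT (37.4% of windows) matched once in the *Jun* window and at 3 places in the window of *Elk1*, whose sequence is not shown because it held no other match. None of the 4 windows held the consensus AP-1 site TGACTCA (5.20% of windows) or the full cyclic-AMP response element TGACGTCA (1.79%), which contains TGACG. The motifs searched included no site of Elk1 or serum response factor and no C/EBP-beta consensus, so sites of these factors were not assessed. These matches describe the letters in the windows and do not show binding.

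Every level below is a delta-Ct value: the cycle at which a gene crossed the detection threshold (Ct) minus the mean Ct of *Hprt1*, *Hsp90ab1* and *Gapdh* in the same sample. A lower delta-Ct means more transcript, and 1 cycle is a 2-fold difference. Values of different strains come from tables that were normalized separately. Ct readings above 35 were set to 35, and none of the 4 genes stood at that cap in any column. A wild-type value is a mean of 2 experiments, so a reading at the cap in only 1 of them would not show. This limit holds for every gene described here as below the cap in wild type. The mean reference Ct of each column was inferred as 35 minus its highest delta-Ct, taken to be the cap. It was 19.37 in TLR7-/- R848, 19.90 in TLR7-/- Mock, 20.07 in IFNAR-/- R848, 22.57 in IFNAR-/- Mock, at most 18.33 in wild-type R848 and 21.85 in wild-type Mock. *Gusb* and *Actb*, the housekeeping genes left out of the reference, themselves differed between treatments. Their log2 differences of R848 over Mock were 0.47 and 0.07 in TLR7-/-, 1.5 and 1.6 in IFNAR-/-, and 1.88 and 0.63 in wild type. *Tlr7* itself had delta-Ct values of 9.33 in R848 and 9.20 in Mock of the TLR7-/- mice, 8.23 and 10.43 in the IFNAR-/- mice, and 9.47 and 12 in wild type. The labels do not say whether the amplicon lies inside the deletion, so this reading checks nothing about the strain, and the plate holds no interferon receptor gene. Of 14 markers of myeloid, B, T and NK cells, 10 to 14 were read below the cap in each column. *Btk*, a B-cell kinase, was at the cap in all 4 columns of the deficient strains. *Csf3* was at the cap in 5 of the 6 columns, the exception being wild-type R848.

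*Jun* was the factor with the highest R848 response of the 4 in every strain. Its delta-Ct was 3.03 in TLR7-/- R848 and 3.50 in TLR7-/- Mock, 3.53 in IFNAR-/- R848 and 7.63 in IFNAR-/- Mock, and 4.27 in wild-type R848 and 6.75 in wild-type Mock. The IFNAR-/- and wild-type Mock columns were the low ones, and the TLR7-/- Mock column lay with the 3 R848 columns. On the log2 scale *Jun* was higher with R848 by 0.47 (1.39-fold) in TLR7-/-, by 4.10 (17.1-fold) in IFNAR-/- and by 2.48 (5.58-fold) in wild type. Among plate genes of known direction these responses ranked 12 of 79, 5 of 75 and 10 of 79. Both low columns were also those with the latest reference Ct, and the part of that in the result was not tested. In a whole organ, moreover, a change in the cells that express a gene and a change in RNA per cell cannot be told apart.

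*Fos*, the partner of Jun in AP-1, did not share that pattern in wild type. Its delta-Ct was 8.63 in TLR7-/- R848 and 8.10 in TLR7-/- Mock, 9.13 in IFNAR-/- R848 and 11.43 in IFNAR-/- Mock, and 9.92 in wild-type R848 and 10 in wild-type Mock. The single low column was IFNAR-/- Mock. There the Ct, inferred from the position of the cap, was 34, 1 cycle short of the cap, where a reading is least precise. The log2 differences of R848 over Mock were -0.53 in TLR7-/-, 2.30 (4.92-fold) in IFNAR-/- and 0.08 in wild type. The wild-type value turned to -0.20 with *Hprt1* alone and -0.15 with *Gapdh* alone as reference, so it has no settled sign.

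*Elk1*, the MAP-kinase effector, had a delta-Ct of 7.33 in TLR7-/- R848 and 6.90 in TLR7-/- Mock, 7.33 in IFNAR-/- R848 and 9.63 in IFNAR-/- Mock, and 9.02 in wild-type R848 and 8.50 in wild-type Mock. IFNAR-/- Mock was again the lowest column, followed by both wild-type columns. *Elk1* was 4.92-fold higher with R848 in IFNAR-/-, a log2 difference of 2.30 that equalled that of *Fos*. With all 5 housekeeping genes as reference, that difference was 1.68 for both genes. The log2 differences of *Elk1* were -0.43 in TLR7-/- and -0.52 in wild type, both within 2-fold. The wild-type difference was -1.02 with all 5 housekeeping genes as reference, which is past 2-fold, and 0 with *Hsp90ab1* alone.

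*Cebpb* had the lowest response of the 4 in every strain when each was set against its own Mock. Its delta-Ct was 2.43 in TLR7-/- R848 and 1.80 in TLR7-/- Mock, 2.03 in IFNAR-/- R848 and 2.23 in IFNAR-/- Mock, and 3.47 in wild-type R848 and 2.10 in wild-type Mock. Wild-type R848 stood apart as the low column, and the other 5 lay between 1.80 and 2.43. The log2 differences of R848 over Mock were -0.63 in TLR7-/-, 0.20 in IFNAR-/- and -1.37 (2.58-fold lower) in wild type. In wild type the value was -0.85 with *Hsp90ab1* alone as reference, within 2-fold. In IFNAR-/- it was -0.20 with *Hprt1* alone, -0.42 with 5 housekeeping genes and -1.05 after centring on the median gene, so its sign is not settled. In TLR7-/- the response of *Cebpb* was only 0.1 below that of *Fos* (-0.53), so their order there is not settled.

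**Figure D1:**
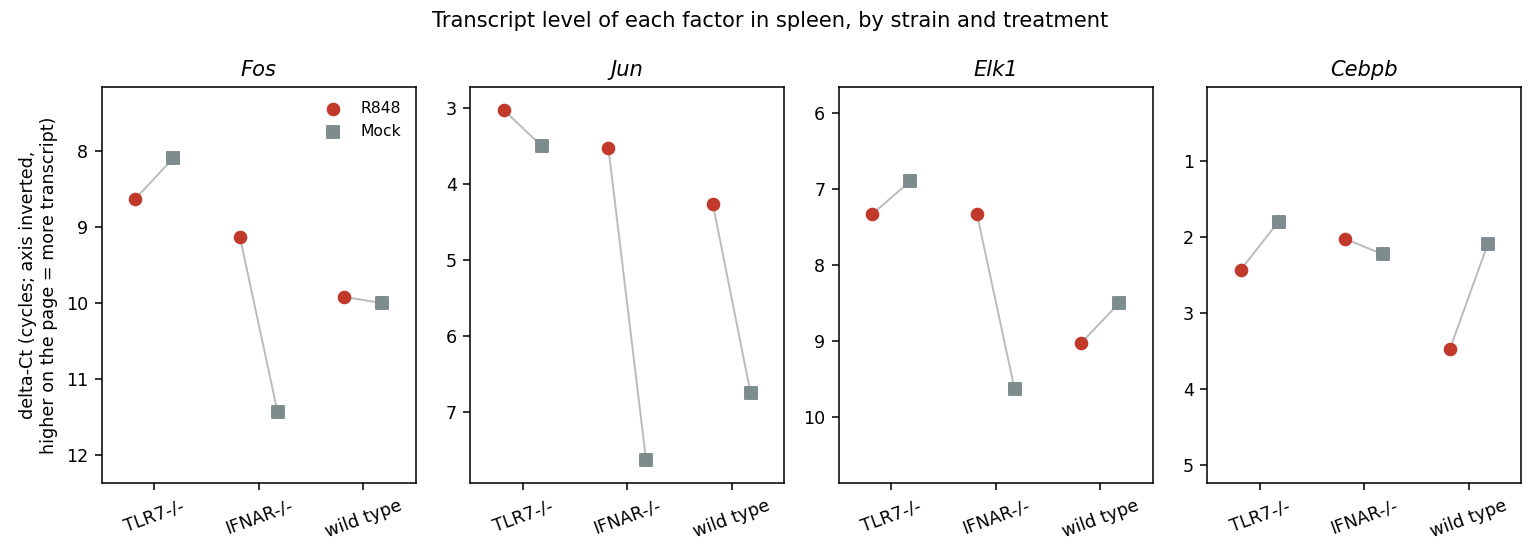
Delta-Ct of each factor, in cycles, for R848 (circles) and Mock (squares) in each strain; the vertical axis is inverted, and all panels span the same number of cycles. Each point is a single value without error, a pool of 3 mice or, in wild type, the mean of 2 such pools. The widest step is that of *Jun* in IFNAR-/- mice, 3.53 in R848 and 7.63 in Mock.

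Set against the whole plate, the number of factors past 2-fold differed between strains. In TLR7-/- none of the 4 was 2-fold higher, where 4.76% of the 84 genes were, and none was 2-fold lower, where 3.57% were. In IFNAR-/- 3 of 4 were 2-fold higher (*Jun*, *Fos* and *Elk1*), against 53.6% of all genes, and none was lower, against 2.38%. In wild type 1 of 4 was higher (*Jun*), against 38.1%, and 1 was lower (*Cebpb*), against 13.1%. With only 4 factors, these counts are not read as particular to them. Relative to the median gene of the plate, which differed by 0.07, 1.25 and 0.41 in TLR7-/-, IFNAR-/- and wild type, *Jun* lay higher by 0.40, 2.85 and 2.08, and *Cebpb* lay at -0.70, -1.05 and -1.78. *Fos* and *Elk1* both lay at 1.05 in IFNAR-/-. In wild type *Fos* lay at -0.33 and *Elk1* at -0.92 relative to that gene. Wherever values were centred, the median was taken over all 84 genes, including those of open direction, 9 in IFNAR-/-. Over genes of known direction the IFNAR-/- median was 1.5. *Fos* and *Elk1*, at 2.30, lay less than 1 log2 unit above that, within 2-fold.

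**Figure D2:**
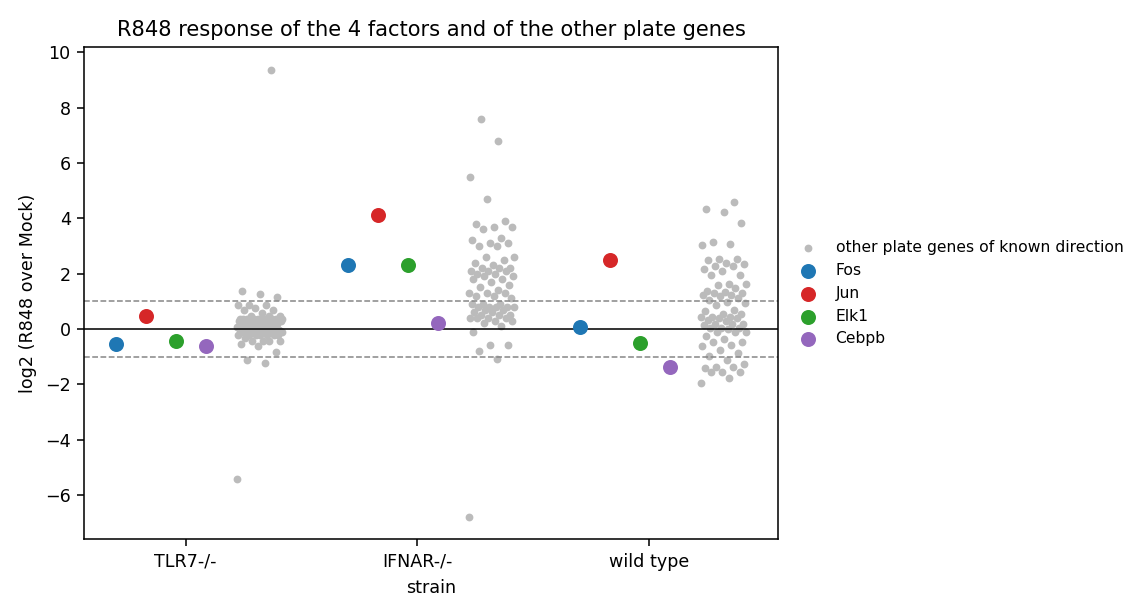
Log2 ratio of R848 over Mock for the 4 factors (coloured) and for the other plate genes whose direction is known (grey), by strain; dashed lines mark 2-fold. *Jun* stands at 0.47, 4.10 and 2.48 in TLR7-/-, IFNAR-/- and wild type, and *Cebpb* at -0.63, 0.20 and -1.37.

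The gap between 2 genes in the same sample does not depend on the reference genes, since their mean Ct drops out. The delta-Ct of *Fos* exceeded that of *Jun* by 5.60 cycles in TLR7-/- R848 and 4.60 in TLR7-/- Mock, by 5.60 in IFNAR-/- R848 and 3.8 in IFNAR-/- Mock, and by 5.65 in wild-type R848 and 3.25 in wild-type Mock. The R848 columns of the 3 strains thus lay within 0.05 cycles of each other, while the Mock columns spanned 3.25 to 4.60. Relative to *Fos*, *Jun* was higher with R848 by 1 log2 unit (2-fold) in TLR7-/-, 1.80 (3.48-fold) in IFNAR-/- and 2.40 (5.28-fold) in wild type. The amplification efficiency of each assay is unknown here, so the size of a gap is not a ratio of molecules, and only its change between samples is compared.

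The gap between *Jun* and *Cebpb* changed more. The delta-Ct of *Jun* exceeded that of *Cebpb* by 0.60 in TLR7-/- R848 and 1.70 in TLR7-/- Mock, by 1.5 in IFNAR-/- R848 and 5.40 in IFNAR-/- Mock, and by 0.80 in wild-type R848 and 4.65 in wild-type Mock. Relative to *Cebpb*, *Jun* was higher with R848 by 1.10 (2.14-fold), 3.90 (14.9-fold) and 3.85 (14.4-fold) in TLR7-/-, IFNAR-/- and wild type. The last 2 values are close, although the responses of *Jun* itself in these strains were 4.10 and 2.48. Relative to *Elk1*, *Jun* was higher by 0.90, 1.80 and 3.00 in the same order. *Fos* and *Elk1* moved with each other: their gap was 1.30 in R848 and 1.20 in Mock of TLR7-/-, 1.80 in both columns of IFNAR-/-, and 0.90 in R848 and 1.5 in Mock of wild type. The ratio of these 2 genes therefore differed by at most 1.52-fold between treatments.

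**Figure D3:**
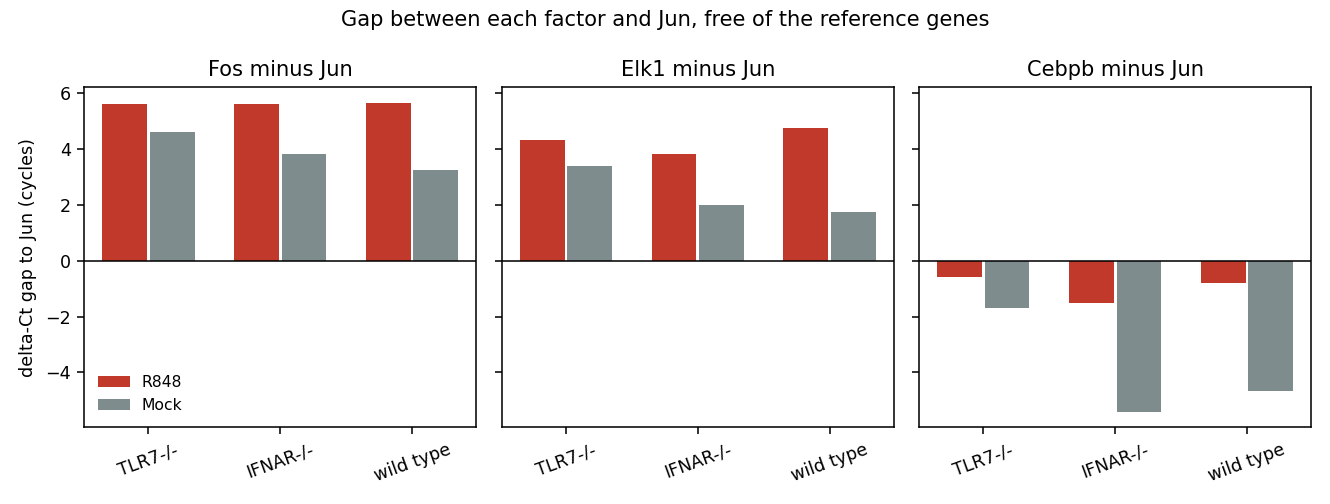
Delta-Ct of *Fos*, *Elk1* and *Cebpb* minus that of *Jun*, in cycles, for R848 and Mock in each strain; bars start at 0 and carry no error, as each is a single value. The gap of *Fos* is 5.60, 5.60 and 5.65 in the R848 columns and 4.60, 3.8 and 3.25 in the Mock columns.

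Between strains, the factors differed more in Mock than in R848. Over the 3 strains the delta-Ct of *Jun* spanned 1.24 cycles in R848 and 4.13 in Mock, that of *Fos* 1.29 and 3.33, and that of *Elk1* 1.69 and 2.73. *Cebpb* went the other way, with 1.44 in R848 and 0.43 in Mock. The Mock span of *Jun* was the widest among 69 genes that were at the cap in no column, whose median span was 1.14 in R848 and 1.73 in Mock. Of those 69 genes, 50 had the wider span in Mock.

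In Mock, TLR7-/- spleen had more *Jun* than wild type by 3.25 log2 units (9.51-fold), more *Fos* by 1.90 (3.73-fold) and more *Elk1* by 1.60 (3.03-fold), while *Cebpb* differed by 0.30. These are 3 of 4 factors at least 2-fold higher, against 48.8% of the 84 genes. After centring on the median gene the values of *Fos* and *Elk1* were 0.98 and 0.67, which left *Jun* alone of the 3 past 2-fold. IFNAR-/- Mock was below wild-type Mock for *Fos* (2.69-fold lower) and *Elk1* (2.19-fold lower), 2 of 4 factors against 31.0% of genes. The log2 difference of *Elk1* there was -0.85, -0.89 and -0.80 with *Hsp90ab1* alone, 5 housekeeping genes and centring, each within 2-fold. *Jun* was 1.84-fold lower there and *Cebpb* 1.09-fold lower. With R848, all 4 factors were at least 2-fold higher in TLR7-/- than in wild type, against 29.8% of genes: *Elk1* 3.23-fold, *Fos* 2.45-fold, *Jun* 2.36-fold and *Cebpb* 2.06-fold. After centring on the median gene only *Elk1* of the 4 was past 2-fold in that comparison. In IFNAR-/- R848 *Elk1* (3.23-fold) and *Cebpb* (2.71-fold) were higher than in wild-type R848, against 29.8% of genes, and *Fos* (1.73-fold) and *Jun* (1.67-fold) were within 2-fold. None of the 4 was 2-fold lower there, against 15.5% of genes.

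The responses themselves were then set against each other. The TLR7-/- response minus the wild-type response was -2.01 log2 units for *Jun*, -0.61 for *Fos*, 0.09 for *Elk1* and 0.74 for *Cebpb*. *Jun* was thus the 1 factor of 4 with a response lower by 1 unit or more, against 31.9% of the 69 genes measured in every column, and none had a response higher by as much, against 7.25%. The IFNAR-/- response exceeded the wild-type response by 2.82 for *Elk1*, 2.22 for *Fos*, 1.62 for *Jun* and 1.57 for *Cebpb*. All 4 differed by at least 1 unit, against 44.9% of the 69 genes, whose median difference was 0.82, and 4.35% of the 69 had a response lower by as much. After centring on the median gene *Jun* (0.77) and *Cebpb* (0.73) no longer did.

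The high values of *Jun* depended on the Mock column used as control. *Jun* in TLR7-/- Mock lay with the R848 columns, as given above, so the values with that control followed from it. That control also sets strains against each other, so it cannot show which Mock column is the unusual one. With the TLR7-/- Mock column as the control in place of each strain's own, the log2 difference of *Jun* was -0.03 in IFNAR-/- and -0.77 in wild type. Those of *Fos* were -1.03 and -1.82, those of *Elk1* were -0.43 and -2.12, and those of *Cebpb* were -0.23 and -1.67. *Jun* still had the highest value of the 4 in both strains, but *Cebpb* no longer had the lowest, which was that of *Fos* in IFNAR-/- and that of *Elk1* in wild type. Under the 5 other scalings tried, each with the strain's own Mock, *Jun* remained higher with R848, by 0.30 to 0.60 in TLR7-/-, 2.85 to 4.50 in IFNAR-/- and 1.98 to 3.00 in wild type.

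**Figure D4:**
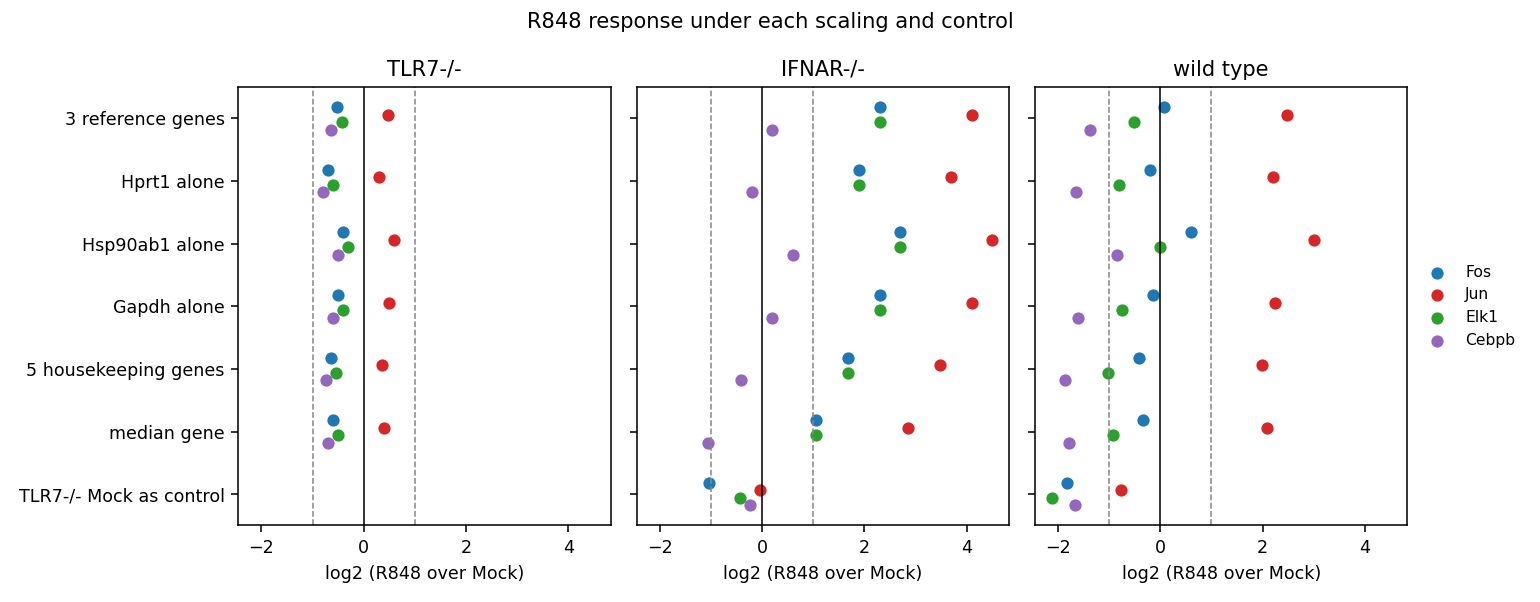
Log2 ratio of R848 over Mock of each factor under each reference or centring, and with the TLR7-/- Mock column as control (lowest row, for the other strains only); dashed lines mark 2-fold, and points are offset vertically for legibility. With that control *Jun* is at -0.03 in IFNAR-/- and -0.77 in wild type.

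Genes with the most similar pattern were found over the 6 columns, after centring each gene on its own mean, among the 69 genes at the cap in no column. The measure was the root-mean-square difference in cycles. Nearest to *Jun* were *Myd88*, the common TLR adaptor (0.43), *Nfkb1*, encoding an NF-kB subunit (0.49), and *Tirap*, a bridging adaptor (0.58), where the median gene lay at 1.25. Nearest to *Fos* were *Irak2*, a kinase of TLR signalling (0.31), *Elk1* (0.32) and *Nfkb2* (0.39), with a median of 0.85. Nearest to *Elk1* were *Nfkb2* (0.26), *Fos* (0.32) and *Nfkbib*, an NF-kB inhibitor (0.44), with a median of 0.82. Nearest to *Cebpb* were *Ripk2*, a kinase of NOD receptor signalling (0.23), *Csf2*, a myeloid growth factor (0.38), and *Il12a*, a cytokine subunit (0.43), with a median of 0.98. *Csf2* lay near the cap in IFNAR-/- Mock (delta-Ct 12.23, cap 12.43) and wild-type Mock (12.3, cap 13.15), so its pattern is uncertain. *Fos* and *Elk1* were thus second to each other, while *Fos* was at rank 13 from *Jun*, and *Cebpb* at rank 64. The points share their libraries and reference genes, so the distances are descriptions.

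Of the kinases and scaffolds that feed AP-1 and Elk1, 8 of 11 listed genes were on the plate. In TLR7-/- 1 of the 8 was 2-fold higher and none lower, namely *Map2k3*, the kinase of p38 (log2 difference 1.37). In IFNAR-/- 4 were higher and none lower: *Map2k3* by 2.20, *Mapk8*, encoding JNK1, by 2.10, *Map2k4*, encoding a kinase of JNK, by 1.80, and *Mapk9*, encoding JNK2, by 1.70. In wild type 5 were higher and none lower, led by *Mapk9* (2.28), *Mapk8* (1.93), *Map2k3* (1.63) and the JNK scaffold *Mapk8ip3* (1.58). The list had median log2 differences of 0.42, 1.30 and 1.38 in TLR7-/-, IFNAR-/- and wild type, beside 0.07, 1.5 and 0.43 for all genes of known direction. The shares of plate genes that were 2-fold higher were 4.76% in TLR7-/-, 53.6% in IFNAR-/- and 38.1% in wild type, so the 4 of 8 kinases in IFNAR-/- were near the plate share. Of 8 other transcription factors on the plate, none was 2-fold away in TLR7-/-, 4 were higher and 1 open in IFNAR-/-, and 4 were higher in wild type. Against the same plate shares, 4 of 8 was again near that of IFNAR-/- and not far from that of wild type. *Nfkb1* led in both, at 3.70 and 2.33, followed by *Rela* (2.20) in IFNAR-/- and *Irf1* (1.93) in wild type.

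Known target genes of AP-1 and C/EBP-beta on the plate were counted in the same way. Of 4 AP-1 targets, TLR7-/- had 1 higher, *Ptgs2*, encoding cyclooxygenase-2 (log2 difference 1.17), and 1 lower, the chemokine gene *Ccl2* (-5.43). IFNAR-/- had 1 higher (*Ccl2*, by at least 6.80) and 1 open. Wild type had none higher, 2 lower, the T-cell growth factor *Il2* (-1.57) and *Csf2* (-1.37), and 1 open. Of 6 C/EBP-beta targets, TLR7-/- had 2 higher (*Cd14*, by at least 9.37, and *Ptgs2*), none lower and 1 open. IFNAR-/- had 3 higher, *Tnf* (3.90), *Il6* (at least 3.8) and *Il1b* (1.10), 1 lower, *Cd14* (at most -6.80), and 1 open. Wild type had 1 higher (*Cd14*, 1.13), 1 lower (*Il6*, -1.12) and 2 open. The plate shares higher and lower were 4.76% and 3.57% in TLR7-/-, 53.6% and 2.38% in IFNAR-/-, and 38.1% and 13.1% in wild type. With so few genes, the target counts are not read as particular to these lists. In wild-type Mock, *Csf2* (delta-Ct 12.3) and *Il6* (12.5) lay near the cap of 13.15, where a reading is least precise. *Ccl2* and *Cd14* lie in neighbouring wells, A03 and A04, and their values in the deficient strains are uncertain. The delta-Ct of *Ccl2* was below that of *Cd14* in 2 columns, TLR7-/- Mock (4.70 for *Ccl2* and 15.10, the cap, for *Cd14*) and IFNAR-/- R848 (5.63 for *Ccl2* and 14.93, the cap, for *Cd14*). It was above that of *Cd14* in the other 4 columns. Whether the 2 readings were exchanged in those columns was not tested, so the values of -5.43, 6.80, 9.37 and -6.80 above may not be those of the named gene. A count without both genes was added after seeing the data. The 3 remaining AP-1 targets had 1 higher and none lower in TLR7-/-. They had none called higher or lower and 1 open in IFNAR-/-, and none higher, 2 lower and 1 open in wild type. The 5 remaining C/EBP-beta targets had 1 higher, none lower and 1 open in TLR7-/-. They had 3 higher, none lower and 1 open in IFNAR-/-, and none higher, 1 lower and 2 open in wild type. *Ptgs2*, in both lists, was at the cap in IFNAR-/- Mock (delta-Ct 12.43, and 12.23 in R848). Its difference there, at least 0.2, was counted as within 2-fold but may be larger.

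Markers of cells a spleen holds were summed in each column, and their sums differed more between R848 and Mock in IFNAR-/- and wild type than in TLR7-/- for the myeloid and B-cell lists. A marker at the cap was left out of the sum of that column, so sums of different columns can hold different genes. The summed level of up to 7 myeloid markers, relative to the reference genes, was 0.308 in TLR7-/- R848 and 0.297 in TLR7-/- Mock, 0.387 in IFNAR-/- R848 and 0.142 in IFNAR-/- Mock, and 0.295 in wild-type R848 and 0.178 in wild-type Mock. In R848 and Mock these sums held 6 and 5 markers in TLR7-/-, 5 and 6 in IFNAR-/-, and 7 and 6 in wild type. The myeloid sum was lowest in the same Mock columns in which *Jun* was lowest, and was not low in wild-type R848, where *Cebpb* was. *Pglyrp1* had the lowest delta-Ct of the myeloid markers in every column, from 1.83 to 3.13, and so weighed most in the sum. The myeloid sum is therefore mainly a reading of that gene, and it kept *Cd14* in columns where *Cd14* was below the cap. Of the 7, 1 was 2-fold higher in TLR7-/-, 4 were higher and 1 lower in IFNAR-/-, and 3 were higher in wild type, with 1 open in each. The 4 of 7 and 3 of 7 were near the plate shares of 53.6% and 38.1%. Without *Cd14*, whose well is in doubt, 0 of 6 were higher in TLR7-/-, 4 in IFNAR-/- and 2 in wild type, and none was lower. The sum of up to 4 B-cell markers was 0.268 in TLR7-/- R848 and 0.292 in TLR7-/- Mock, 0.285 in IFNAR-/- R848 and 0.134 in IFNAR-/- Mock, and 0.235 in wild-type R848 and 0.310 in wild-type Mock. It held 3 markers in the deficient strains and 4 in wild type, so it is not a like measure between them. *Btk*, counted in wild type only, had a delta-Ct of 5.67 in R848 and 4.10 in Mock there. The sum of up to 3 T and NK cell genes was 0.0208 in TLR7-/- R848 and 0.0202 in TLR7-/- Mock, 0.00758 in IFNAR-/- R848 and 0.00619 in IFNAR-/- Mock, and 0.00531 in wild-type R848 and 0.0122 in wild-type Mock. It held 2 genes in IFNAR-/- and 3 in the other strains. IFNAR-/- Mock was thus the lowest column for the myeloid and B-cell sums, and wild-type R848 for the T and NK cell sum. The part of cell composition in the responses was not tested.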

How the data were processed

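Whole-spleen RNA was read by real-time PCR on a TLR pathway plate, with 50 ng of RNA per reaction per the labels. The deposited delta-Ct values, on a log2 scale, are Ct minus the mean Ct of 3 reference genes per the file headers; Ct above 35 or blank had been set to 35 per the series' design text. The authors' deposited fold difference (a ratio) could be rebuilt from these values for every one of the 89 genes of a table, allowing 0.01 cycles or 0.005 in the fold for rounding. Strain was taken from the table's name and treatment from its column. The 6 delta-Ct columns were analysed, and 6 further per-sample columns that restate them on a linear scale were left out. Ct steps were 0.1 cycles.

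A log2 difference of R848 over Mock is the Mock delta-Ct minus the R848 delta-Ct, and one of a deficient strain over wild type likewise (Python 3.11.15, numpy 2.4.6). The cap of a column is the highest delta-Ct shared by at least 5 genes; that of wild-type R848 was reached by *Tlr5* alone and gives only a limit. A gene whose cap leaves its direction unknown was called open. A difference known only as a limit was counted at that limit. Counts use 2-fold. The 4 factors, gene lists and alternatives were chosen with earlier results of these data known. Genes named are the factors, the 3 nearest in pattern to each, and list members past 2-fold, up to 4 per list and strain. *Csf3*, *Btk* and *Tlr7* were named as checks. The design allowed for values of the separate wild-type experiments; with only their means used here, no test, spread or depth could be given.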

Additional observations from a re-analysis of the deposited data

Results flagged for a closer look

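Responses with opposite signs in 2 strains were singled out; none of these differences was tested, since each strain has a single value per treatment and that of wild type is a mean. For *Fos*, the IFNAR-/- response (2.30) minus the TLR7-/- response (-0.53) was 2.83, and the TLR7-/- response minus the wild-type response (0.08) was -0.61. For *Elk1*, the IFNAR-/- response (2.30) exceeded the TLR7-/- response (-0.43) by 2.73 and the wild-type response (-0.52) by 2.82. For *Cebpb*, the IFNAR-/- response (0.20) exceeded the TLR7-/- response (-0.63) by 0.83 and the wild-type response (-1.37) by 1.57. The response of *Cebpb* in IFNAR-/- and that of *Fos* in wild type changed sign under other references. The contrasts of sign that rest on these 2 responses are therefore not settled. All values are log2 units.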

How the results depend on the processing

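Of 314 values recomputed under an alternative, 237 kept their direction and their side of 2-fold, or for counts stayed within 1.5 times. The cause of the other changes was not tested; a new reference or centring adds the same shift to every gene of a comparison. No paired analysis was possible because the wild-type columns hold only the mean of the 2 experiments, and leaving out each experiment was not run for the same reason. Without a repeat reading, the precision of each value is unknown.

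With the TLR7-/- Mock column as control, the log2 differences turned to -1.03 (*Fos*), -0.03 (*Jun*), -0.43 (*Elk1*) and -0.23 (*Cebpb*) in IFNAR-/-, and to -1.82 (*Fos*), -0.77 (*Jun*) and -2.12 (*Elk1*) in wild type. Under that control, an alternative added after seeing the data for pairs of factors, the response of *Fos* minus that of *Cebpb* turned to -0.80 in IFNAR-/- and -0.15 in wild type, and that of *Elk1* minus *Cebpb* to -0.20 in IFNAR-/-. The response of *Jun* minus that of *Cebpb* was then 0.20 in IFNAR-/- and 0.90 in wild type.

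Within strains, *Cebpb* in IFNAR-/- was -0.20 with *Hprt1* alone, -0.42 with 5 housekeeping genes and -1.05 after centring on the median gene. *Fos* in wild type was -0.20, -0.15, -0.42 and -0.33 with *Hprt1* alone, *Gapdh* alone, 5 housekeeping genes and centring. *Elk1* in wild type was 0 with *Hsp90ab1* alone and -1.02 with 5 housekeeping genes, and *Cebpb* in wild type was -0.85 with *Hsp90ab1* alone.

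For TLR7-/- over wild type in R848, centring gave 0.90 (*Fos*), 0.85 (*Jun*) and 0.65 (*Cebpb*), and *Cebpb* was 0.90 with *Hprt1* or *Hsp90ab1* alone. In Mock, centring gave 0.98 (*Fos*), 0.67 (*Elk1*) and -0.63 (*Cebpb*), and *Cebpb* was -0.13 with 5 housekeeping genes. For IFNAR-/- over wild type in Mock, *Jun* was -1 with *Hprt1* alone and -1.05 with *Gapdh* alone. There *Elk1* was -0.85, -0.89 and -0.80, and *Cebpb* 0.15, 0.11 and 0.20, with *Hsp90ab1* alone, 5 housekeeping genes and centring.

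For responses set against wild type, the TLR7-/- difference was -1 for *Fos* and -0.30 for *Elk1* with *Hsp90ab1* alone. For *Cebpb* it was 1.00, 1.13 and 1.07 with *Gapdh* alone, 5 housekeeping genes and centring. The IFNAR-/- difference was 0.77 for *Jun* and 0.73 for *Cebpb* after centring.

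The number of the 4 factors that were lower was 1 at 1.5-fold in TLR7-/-, 1 after centring in IFNAR-/-, and in wild type 0 at 3-fold or with *Hsp90ab1* alone and 2 with 5 housekeeping genes. Of all plate genes, TLR7-/- had 10 higher and 6 lower at 1.5-fold, 1 higher and 1 lower at 3-fold, and 7 higher with *Hsp90ab1* alone. IFNAR-/- had 23 higher and 9 lower after centring, and 5 lower at 1.5-fold, with *Hprt1* alone or with 5 housekeeping genes. It had 1 lower at 3-fold, without genes at the cap or with *Hsp90ab1* alone. Wild type had 21 higher and 2 lower at 3-fold, 5 lower with *Hsp90ab1* alone and 17 lower with 5 housekeeping genes.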
